A study of Mus musculus with 16 samples.

Results

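The genes described here are the 7 that carry the intestinal handling of bile acids and its sensing by the farnesoid X receptor (FXR): Nr1h4, Nr0b2, Slc10a2, Fabp6, Slc51a, Slc51b and Fgf15. They were taken by name, through their Ensembl identifiers, from the 45513 genes of the count files. RNA was sequenced from small intestinal epithelial cells of 8 mice. Each mouse carried CreERT2 at the Atoh1 locus and a tdTomato reporter at Rosa26 (Atoh1(WT)CreERT2 R26RtdTom), and each gave 1 EpCAM+ tdTom+ and 1 EpCAM+ tdTom- library, so n = 8 for each fraction. Per the labels, all animals received tamoxifen at 1 mg daily for 3 days, which is therefore common to both fractions, and the labels give no age or sex. Per the methods, adults of both sexes were used, on a C57BL/6 background. The reporter marks cells in which Atoh1, the transcription factor of the secretory lineages, was active, together with their progeny, and the tdTom- fraction is every other EpCAM+ cell. The methods describe dissection of the proximal small intestine and discarding of a first, villus-rich fraction of the dissociated cells. No library of ileum alone was analysed here, and counts of ileal genes therefore cannot be turned into a share of ileal tissue.

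Bile acids that reach the terminal ileum are taken up from the lumen by SLC10A2 (ASBT), bound in the cytosol by FABP6 and exported across the basolateral membrane by the heteromer of SLC51A and SLC51B (OSTα and OSTβ). Inside the cell they activate FXR, the nuclear receptor encoded by Nr1h4, which binds DNA with a retinoid X receptor and induces Fabp6, Slc51a, Slc51b, Nr0b2 (SHP, a corepressor) and, in the ileum, Fgf15. FGF15 is a hormone that acts in the liver on FGFR4 and its coreceptor β-Klotho (Klb) and lowers bile acid synthesis.

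Libraries held 17116405 to 25323567 counts in genes, and the fractions carried the markers of their labels. All 8 goblet and all 8 Paneth genes looked at were higher in tdTom+, with summed goblet levels of 128104 to 264225 CPM (counts scaled to the library size) against 952 to 1511 in tdTom-. All 8 enteroendocrine genes were also higher in tdTom+, with sums of 2031 to 3124 CPM against 594 to 1084, and 2 of 5 stem genes were higher with none lower (Smoc2 also passed when the mouse was a block, edgeR adjusted p = 0.0012 against 0.0158). Of 8 absorptive genes, 7 were lower in tdTom+ (summed level 3021 to 6306 CPM against 11925 to 26065; median log2 fold change -2.42), and Krt20 did not pass (adjusted p = 0.153). The 5 fibroblast genes summed to at most 0.581 CPM in any library. The 5 T cell and leukocyte genes summed to 8.56 to 114 CPM in tdTom- and 4.79 to 21.4 CPM in tdTom+. Of 5 hepatocyte genes Fgb had no count, Ahsg at most 3 counts and Alb at most 36, and their sum was 2.42 to 4.89 CPM in tdTom- and 6.61 to 10.8 CPM in tdTom+. In bulk libraries of this kind, fewer cells of a type and less RNA per cell cannot be told apart. The part of these mixtures in the differences below was not tested beyond the comparison with absorptive genes.

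Promoter sequences of 4 genes that FXR is known to induce are shown because the 3 expressed ones differed between the fractions while the fourth, Fabp6, gave at most 9 reads in any library. The windows are RefSeq sequences on GRCm38.p6 and run from 250 bases before to 50 bases after the annotated start, 5′ to 3′ on the strand of the gene. Capitals mark, on either strand, AGGTCA (the half-site of many nuclear receptors; TGACCT when it lies on the other strand) and TATAAA (the TATA box; TTTATA when it lies on the other strand).
Slc51a: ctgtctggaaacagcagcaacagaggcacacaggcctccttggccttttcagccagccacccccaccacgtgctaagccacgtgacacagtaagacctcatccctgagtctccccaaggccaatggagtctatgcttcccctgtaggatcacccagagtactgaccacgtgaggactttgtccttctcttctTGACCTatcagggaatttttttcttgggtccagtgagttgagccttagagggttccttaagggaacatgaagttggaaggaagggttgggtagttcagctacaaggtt
Slc51b: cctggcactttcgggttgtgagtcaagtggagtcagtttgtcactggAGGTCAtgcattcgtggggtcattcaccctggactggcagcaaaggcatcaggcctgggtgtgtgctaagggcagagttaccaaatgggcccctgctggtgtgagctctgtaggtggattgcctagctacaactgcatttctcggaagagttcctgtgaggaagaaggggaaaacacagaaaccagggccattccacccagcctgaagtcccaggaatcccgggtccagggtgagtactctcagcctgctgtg
Nr0b2: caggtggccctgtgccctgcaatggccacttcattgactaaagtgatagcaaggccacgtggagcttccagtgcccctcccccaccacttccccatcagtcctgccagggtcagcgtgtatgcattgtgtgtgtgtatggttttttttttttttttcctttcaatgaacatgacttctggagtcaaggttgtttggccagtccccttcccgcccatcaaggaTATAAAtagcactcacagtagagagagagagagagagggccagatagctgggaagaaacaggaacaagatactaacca
Fabp6: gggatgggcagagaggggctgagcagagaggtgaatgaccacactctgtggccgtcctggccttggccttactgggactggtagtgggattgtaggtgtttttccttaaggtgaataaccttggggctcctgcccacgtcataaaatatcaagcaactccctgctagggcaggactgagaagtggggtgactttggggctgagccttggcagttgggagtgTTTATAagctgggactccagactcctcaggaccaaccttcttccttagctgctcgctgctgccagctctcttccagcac
They cover chr16:32487830-32488129 (minus strand) for Slc51a, chr9:65422724-65423023 (minus) for Slc51b, chr4:133553126-133553425 (plus) for Nr0b2 and chr11:43601513-43601812 (minus) for Fabp6. RefSeq windows were matched for 6 of the 7 genes, all except Fgf15.

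AGGTCA began at position -58 of Slc51a and -203 of Slc51b, counted from the start along the gene, and at -214 in the window of Nr1h4. It was in none of the windows of Nr0b2, Fabp6 and Slc10a2. Of 32851 windows of 300 bases, 16.3% held these 6 letters. TATAAA began at -28 in Nr0b2 and at -29 in Fabp6, and 13.6% of windows held it. The letters AGATAA, which GATA factors can bind, were found at -131 in Nr1h4 alone, against 11.2% of windows. The exact inverted repeat of AGGTCA with 1 base between the repeats, the textbook FXR element, was in none of the 6 windows and in 3 of 32851. Only exact letters were searched. Near matches were not counted, such as aggtgaataacct in the printed window of Fabp6, so that the absence of an exact match does not show that a window lacks an FXR element. These matches describe the letters of the windows only. The starts of Slc51a, Slc51b and Nr0b2 in RefSeq are the outer ends of the genes in the count files, those of Fabp6 and Slc10a2 lie 22 and 55 bases beyond them, and that of Nr1h4 lies 26927 bases inside the gene, so that its window is 1 of several possible starts.

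The subunits of the exporter and the receptor were well expressed in both fractions and Nr0b2 was low, whereas Slc10a2, Fabp6 and Fgf15 gave 0 to 11 reads per library in all 16 libraries. Per kilobase of exon, the tdTom- order was Slc51b (107 ± 21.7 CPM per kb, SD, n = 8), Slc51a (93.0 ± 13.2), Nr1h4 (12.8 ± 1.44), Nr0b2 (2.76 ± 1.45), Fabp6 (0.346 ± 0.241), Slc10a2 (0.173 ± 0.0938) and Fgf15 (0.0954 ± 0.0446). The first pair overlapped within their spread, as did neighbours among the last 3 genes. In tdTom+ the order was Slc51a (16.6 ± 5.36 CPM per kb), Slc51b (13.4 ± 6.91), Nr1h4 (8.10 ± 0.685), Nr0b2 (0.459 ± 0.285), Fabp6 (0.247 ± 0.239), Slc10a2 (0.187 ± 0.0977) and Fgf15 (0.0248 ± 0.0405). There Slc51a and Slc51b overlapped within their spread, and so did Slc51b and Nr1h4. Nr0b2, with 2 to 24 reads per library, overlapped with Fabp6, and Fabp6 with Slc10a2. Against the genes that passed the filter on low counts, the tdTom- level per kb of Slc51b was above 96.8%, that of Slc51a above 96.2%, that of Nr1h4 above 74.2% and that of Nr0b2 above 38.4%.

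**Figure D1:**
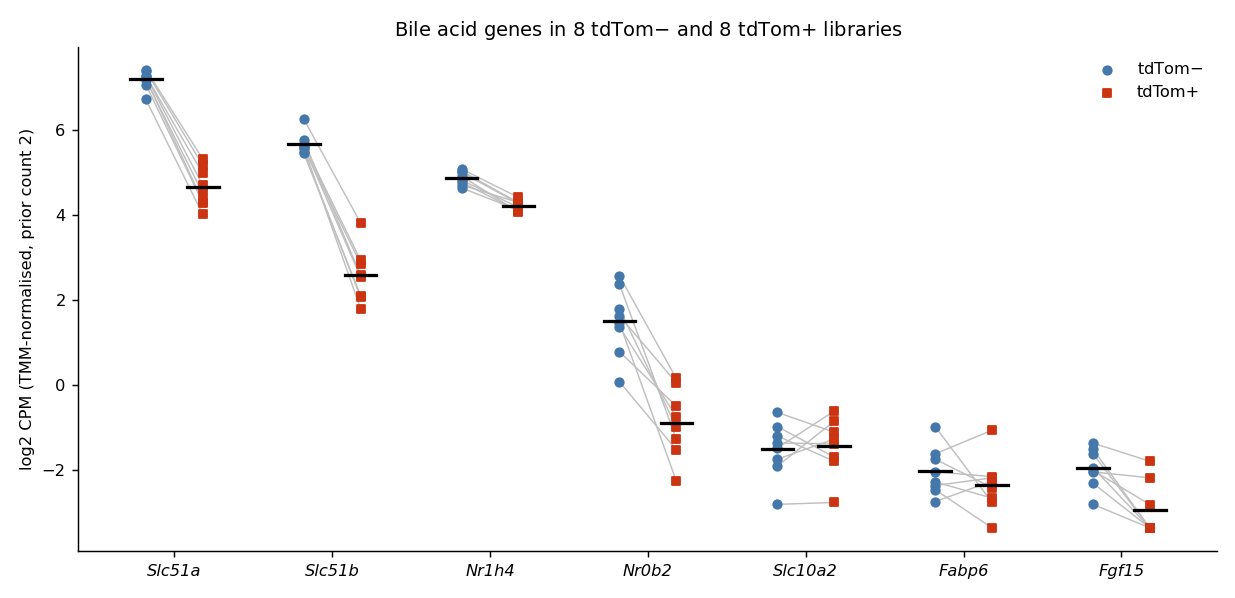
Level of each gene in every library, as log2 CPM with a prior count of 2 (y axis), for tdTom- (blue circles) and tdTom+ (red squares); grey lines join the fractions of a mouse and black bars are means of 8 libraries. Slc51a, Slc51b and Nr1h4 separate fully, Nr0b2 overlaps slightly, and Slc10a2, Fabp6 and Fgf15 lie near the level of a few reads.

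Nr1h4 (ENSMUSG00000047638, GRCm38 chr10:89454234-89533585, minus strand), the receptor, was lower in tdTom+ in every mouse, by the smallest factor of the 4 genes tested. Its lowest, median and highest levels were 24.9, 29.3 and 34.0 CPM in tdTom- and 16.8, 18.7 and 21.3 CPM in tdTom+. The lowest tdTom- library was above the highest tdTom+ library. Means were 29.5 ± 3.32 and 18.7 ± 1.58 CPM (SD, n = 8 each), and the log2 fold change was -0.66 ± 0.08 (SE; edgeR adjusted p = 3.6e-07), or 1.58-fold lower. Lower calls were common: 27.0% of the 15323 genes tested were lower in tdTom+ at adjusted p under 0.01, 22.7% were higher, and 17.0% were lower with no overlap between the fractions. The median log2 fold change of all genes tested was 0.0087. Without mouse 3 the balance turned, with 3224 genes lower, 3960 higher and a median of 0.12, and there Nr1h4 was at -0.54. The spread of Nr1h4 between mice was small, with an SD of log2 CPM above that of only 23.8% of tested genes in tdTom- and 17.2% in tdTom+.

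Nr0b2 (ENSMUSG00000037583, chr4:133553376-133556536, plus strand), the corepressor and a standard readout of FXR activity, was low and varied widely. Libraries held 21 to 128 reads in tdTom- and 2 to 24 in tdTom+. The lowest, median and highest levels were 0.958, 2.83 and 5.84 CPM in tdTom- and 0.111, 0.453 and 1.02 CPM in tdTom+. The groups overlapped: the tdTom- library of mouse 7 (0.958 CPM) lay below the tdTom+ library of mouse 5 (1.02 CPM), although within each of the 8 mice tdTom+ was lower. Means were 3.13 ± 1.64 and 0.520 ± 0.322 CPM, and the log2 fold change was -2.54 ± 0.39 (edgeR adjusted p = 1.6e-05). Nr0b2 passed the filter on low counts only through its tdTom- libraries, the fraction where it is high. Its call is therefore not independent of the filter, and the count of tested genes among the 7 carries no weight of its own. The tdTom- levels spanned 6.10-fold between mice, and the SD of log2 CPM was above that of 96.9% of tested genes in tdTom- and 98.2% in tdTom+.

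Slc10a2 (ENSMUSG00000023073, chr8:5085623-5105232, minus strand), the apical uptake transporter, gave 1, 5.5 and 10 reads (lowest, median, highest) in tdTom- and 1, 6.5 and 11 in tdTom+. The fractions overlapped throughout. Pooled over 8 libraries this was 46 reads, or 0.277 CPM (exact 95% Poisson interval 0.203 to 0.369, counting error only), in tdTom- and 50 reads, or 0.305 CPM (0.226 to 0.402), in tdTom+. No difference was detectable at this depth (exact two-sided permutation test over libraries, p = 0.777). It was at a few reads also in tdTom-, where the absorptive genes were high.

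Fabp6 (ENSMUSG00000020405, chr11:43596049-43601540, minus strand), the cytosolic bile acid carrier, gave 1, 2.5 and 9 reads in tdTom- and 0, 2 and 9 in tdTom+. The highest counts came from mouse 7 in tdTom- and mouse 5 in tdTom+, with no more than 5 reads in any other library. Only 3 tdTom- libraries and 1 tdTom+ library exceeded a floor of 3 reads, which corresponds to 0.123 to 0.191 CPM. Pooled levels were 0.168 CPM (exact Poisson interval 0.112 to 0.243) from 28 reads and 0.122 CPM (0.0744 to 0.188) from 20 reads, with no detectable difference (exact permutation p = 0.425). Per library the log2 ratio of Fabp6 to Slc10a2, per kb and with the prior count, was 1.25 ± 1.07 in tdTom- and 0.84 ± 1.01 in tdTom+ (exact permutation p = 0.454). Single reads move that ratio at these counts.

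Fgf15 (ENSMUSG00000031073, chr7:144896532-144900953, plus strand), the hormone, was the lowest of the 7 per kb. Libraries held 1, 3 and 6 reads in tdTom- and 0, 0 and 3 in tdTom+, with 29 reads against 7 in all. It was at 0 in 5 tdTom+ libraries, and no tdTom+ library exceeded the floor. Within each mouse the tdTom- level in CPM was the higher, but the ranges of the fractions overlapped. In mouse 6 both libraries held 3 reads, and in mouse 5 the tdTom- library held 1 read and the tdTom+ library 0. An exact permutation test of the mean CPM (0.173 ± 0.0807 against 0.0449 ± 0.0732), added after the counts were seen, gave p = 0.00855 (0.0256 adjusted over the 3 genes under the filter), and the adjusted p was 0.0612 to 0.0857 without mouse 2, 4, 7 or 8. In fits of all genes with no filter on low counts the adjusted p was 0.0211 by edgeR and 0.0185 by DESeq2, so that Fgf15 did not pass 0.01. No fold is given because tdTom+ lies at or under the floor. Fgf15 shares exonic bases with Gm26793 on the opposite strand, and counting was by strand.

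**Figure D2:**
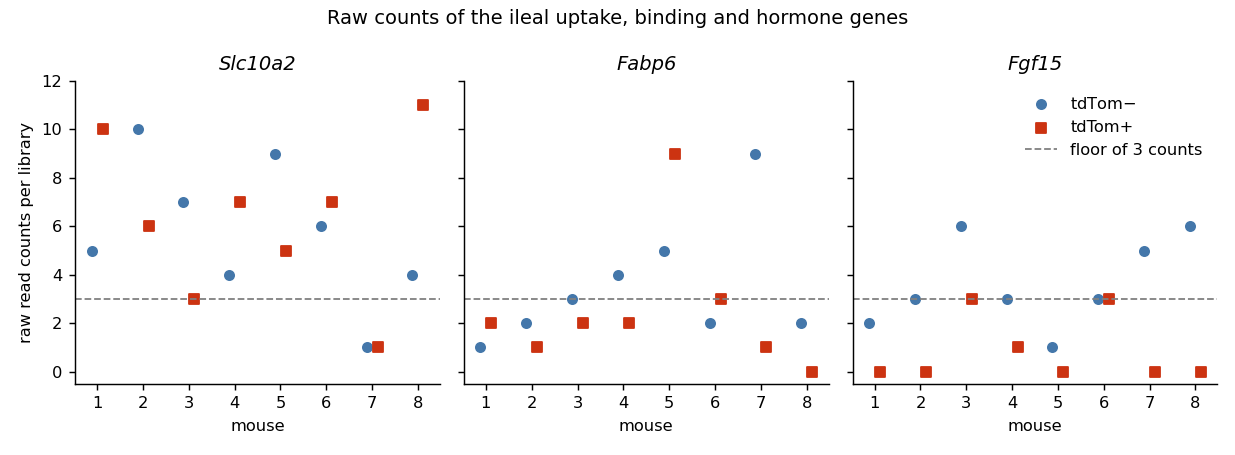
Raw reads of Slc10a2, Fabp6 and Fgf15 (y axis) in the tdTom- (blue circles) and tdTom+ (red squares) library of each mouse (x axis), with the floor of 3 counts dashed. No library exceeds 11 reads for any of these genes, and Fgf15 is at 0 in 5 tdTom+ libraries.

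Regional genes of the libraries were described with 2 gene lists. Of 8 genes associated with the proximal intestine, Gata4, the transcription factor that sets jejunal against ileal identity, was at 166 ± 11.8 CPM in tdTom- and 112 ± 5.25 in tdTom+. Lct (lactase) was at 2365 ± 776 and 234 ± 89.3 CPM, and Fabp1, the fatty acid binding protein of the proximal enterocyte, at 2728 ± 693 and 382 ± 171 CPM. Of the proximal list 5 genes were lower and 1 higher in tdTom+ (Cybrd1, the duodenal iron reductase, log2 fold change 3.80 ± 0.28), with a median of -1.14. Of 9 genes taken as distal, 7 were lower, none was higher and 2 did not pass, with a median of -1.37. With the mouse as a block Pyy, a hormone of distal enteroendocrine cells, passed as higher (log2 fold change 0.61 ± 0.23, edgeR adjusted p = 0.0284, and 0.0042 with the block). Over all genes tested 27.0% were lower and 22.7% higher. The distal list was not near 0 as Slc10a2, Fabp6 and Fgf15 were: in tdTom- Clec2h was at 599 ± 195, Naaladl1 at 486 ± 114, Cubn (cubilin) at 383 ± 175 and Amn (amnionless, its partner) at 112 ± 17.0 CPM. Whether high values of this list mark ileum in these libraries was not tested, because no library of ileum alone was analysed.

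Slc51a and Slc51b, the subunits of the basolateral exporter, were the most strongly expressed of the 7 genes in tdTom-. Both were lower in tdTom+ in all 8 mice, and there the mean of Slc51b in CPM (6.52) lay below that of Nr1h4 (18.7). Slc51a (ENSMUSG00000035699, chr16:32475522-32487879, minus strand) had its lowest, median and highest levels at 106, 152 and 173 CPM in tdTom- and at 16.1, 24.4 and 40.0 CPM in tdTom+. The groups were far from overlapping. Means were 149 ± 21.1 and 26.5 ± 8.58 CPM, with a log2 fold change of -2.49 ± 0.17 (edgeR adjusted p = 6.1e-10), or 5.60-fold lower.

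Slc51b (ENSMUSG00000053862, chr9:65412753-65422773, minus strand) had levels of 44.0, 48.8 and 77.1 CPM in tdTom- and 3.40, 5.83 and 14.0 CPM in tdTom+. The groups did not overlap, and mouse 5 was well above the other 7 in both fractions. Means were 52.1 ± 10.6 and 6.52 ± 3.37 CPM, with a log2 fold change of -2.99 ± 0.24 (edgeR adjusted p = 3.0e-09), or 7.93-fold lower. Slc51b shares exonic bases with Rasl12 on the opposite strand, and counting was by strand. The windows printed above show that both genes hold 1 AGGTCA, at different distances from the start.

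The subunits did not keep the same proportion in the fractions. Per kb, the log2 ratio of Slc51a to Slc51b was -0.19 ± 0.23 in tdTom- (range -0.55 to 0.10) and 0.36 ± 0.29 in tdTom+ (range -0.21 to 0.78). This is a ratio of 0.874 against 1.29. It was higher in tdTom+ in 8 of 8 mice, by 0.56 on the log2 scale (exact two-sided permutation test, p = 0.0014, 0.0028 adjusted over the 2 ratios tested). With the fractions of a mouse kept together the exact sign-flip p was 0.00781, the smallest that 8 mice allow.

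**Figure D3:**
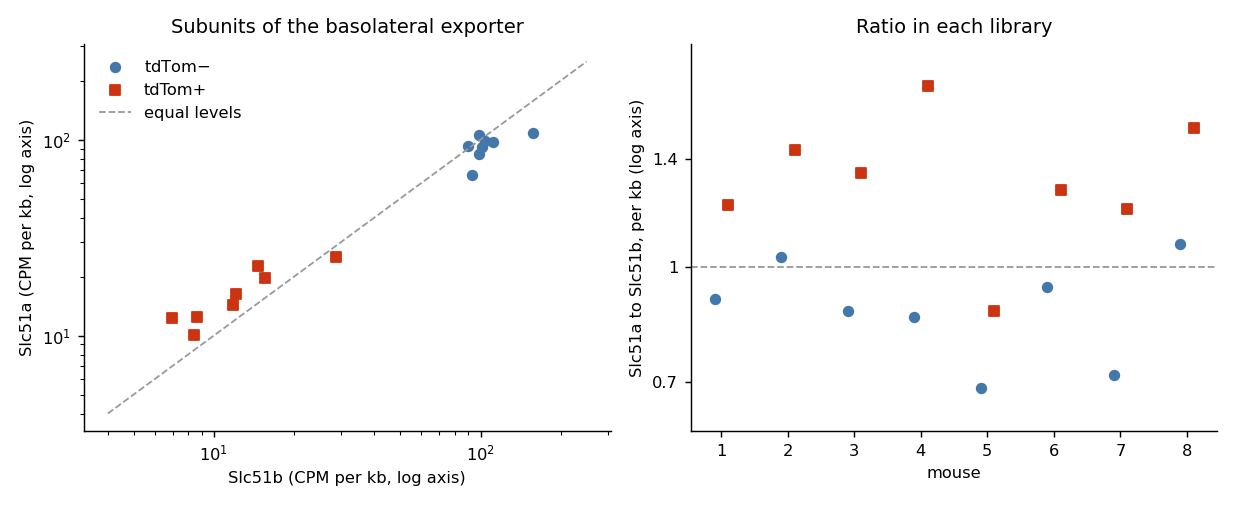
Left, Slc51a against Slc51b in CPM per kb of exon, on log axes, in tdTom- (blue circles) and tdTom+ (red squares) libraries, with equal levels dashed. Right, the ratio of Slc51a to Slc51b per kb (log axis) in both fractions of each mouse; it is higher in tdTom+ in all 8 mice, with geometric means of 1.29 and 0.874.

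Because tdTom- held more absorptive transcripts, each gene was also set against the mean log2 level of the 8 absorptive genes in the same library. That mean was itself lower in tdTom+ (11.04 in tdTom- and 8.93 in tdTom+, log2 CPM), so that 96.6% of all genes tested were higher relative to it, with a median of 2.12 on the log2 scale. Nr1h4, at 1.45 above it, is 1 of these, and nothing about Nr1h4 is read from that sign. The fold changes of the panel genes ran from -2.69 to -0.27. The fold change of Slc51b was lower than that of every one of the 8. Relative to the panel mean Slc51b was lower in 8 of 8 mice (difference -0.99, exact two-sided permutation p = 0.000622, 0.000829 adjusted over 4 tests). With the fractions of a mouse kept together the exact sign-flip p was 0.00781 (adjusted p = 0.0104), for Slc51b and Slc51a alike. Slc51a lay inside the spread of the panel, 3 of whose genes had a lower fold change. Its difference from the panel mean was -0.43 (exact permutation p = 0.000311, adjusted p = 0.000622), but without Krt20, the panel gene that did not pass, it was -0.17 (exact permutation, adjusted p = 0.113), so that no difference from absorptive genes is claimed for it. Without Krt20 the difference of Slc51b was -0.73 (exact permutation, adjusted p = 0.0022). That panel still held Vil1 (log2 fold change -1.43 ± 0.11), and the difference without Vil1 was not computed. Of all genes tested 1.04% had a lower fold change than Slc51b, among them Lct (-3.34 ± 0.31) and Cubn (-3.62 ± 0.40). The difference of Slc51b is therefore from this panel and is not claimed for other absorptive genes. Nr0b2 did not differ detectably from the panel (difference -0.29, lower in 5 of 8 mice, exact permutation p = 0.373).

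Other bile acid receptors and their partners were described against the same background of 27.0% lower and 22.7% higher among all genes tested. Of 7, 4 were lower in tdTom+, 1 was higher, 1 did not pass and 1 was below the filter, with a median log2 fold change of -1.02 over the 6 tested. Rxra, the partner with which FXR binds DNA, was at 144 ± 19.8 CPM in tdTom- and 78.2 ± 10.2 in tdTom+ (log2 fold change -0.88 ± 0.10), and Rxrb was at 37.5 ± 2.38 and 36.5 ± 1.65 CPM (adjusted p = 0.538). The bile acid responsive receptors Vdr (-1.15 ± 0.09) and Nr1i2, the pregnane X receptor (-1.74 ± 0.13), were lower, as was Nr1i3, the constitutive androstane receptor (-3.03 ± 0.29). S1pr2, a receptor for conjugated bile acids, was low and higher in tdTom+ (1.16 ± 0.365 against 3.33 ± 0.569 CPM; 1.51 ± 0.18). Gpbar1 (TGR5), the membrane bile acid receptor, gave 0 to 4 reads in tdTom- and 1 to 7 in tdTom+.

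Of 6 regulators of these genes 5 were lower and none was higher in tdTom+, with a median of -0.50, where 27.0% of all genes were lower. Nr1h3 (LXRα) fell most in this list (-1.99 ± 0.14), followed by Nr5a2 (LRH-1, which SHP represses; -0.90 ± 0.10). Malrd1, which promotes FGF15 production, was at 123 ± 25.6 CPM in tdTom- and 86.1 ± 15.4 in tdTom+ (-0.51 ± 0.14). Hnf4a, the nuclear receptor of all intestinal epithelium, was at 609 ± 50.2 and 593 ± 41.9 CPM (adjusted p = 0.658).

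Of 7 other bile acid transporters 2 were lower, 1 was higher, 1 did not pass and 3 were below the filter, with a median of -0.44 over the 4 tested. These counts rest on 4 tested genes, beside 27.0% lower and 22.7% higher of all genes tested, and nothing is read from them. Abcc2 (MRP2), an apical exporter of conjugates, was lower in tdTom+ (516 ± 171 against 70.0 ± 21.2 CPM; log2 fold change -2.88 ± 0.26). Abcc3 (MRP3), a basolateral exporter like SLC51A and SLC51B, was at 159 ± 25.9 and 165 ± 23.0 CPM (adjusted p = 0.635). Abcc4 (MRP4) was higher in tdTom+ (1.53 ± 0.358 against 7.38 ± 2.07 CPM; 2.27 ± 0.17). The hepatic transporters Abcb11 and Slc10a1 gave at most 4 and 1 reads in a library.

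The genes of the FGF15 receptor were low in both fractions. Klb, the coreceptor, held 1 to 14 reads in tdTom- and 34 to 93 in tdTom+ (0.413 ± 0.192 against 3.05 ± 0.957 CPM), with a log2 fold change of 2.87 ± 0.29 (edgeR adjusted p = 8.2e-08). Klb passed the filter only through tdTom+, the fraction where it is high, so that its call is not independent of the filter. In tdTom+ the hepatocyte genes were also higher (3 of 3 tested) with Fgb at 0 reads, and their part in this result was not tested. Fgfr4 was at 3.92 ± 1.54 and 5.54 ± 1.28 CPM (adjusted p = 0.0483), which did not pass 0.01.

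Of 9 genes of bile acid synthesis and conjugation, 3 were tested, of which Amacr was lower (-1.10 ± 0.08), while Hsd3b7 and Cyp27a1 did not pass. Cyp27a1, the first enzyme of the alternative pathway, was at 49.9 ± 24.0 and 25.2 ± 11.5 CPM (adjusted p = 0.0228), and with the mouse as a block it passed (adjusted p = 4.0e-05). Cyp7a1, the enzyme that hepatic FGF15 signalling represses, gave 0 reads in all 16 libraries. The 3 genes of bile acid hydroxylation were all lower in tdTom+, at -3.27 ± 0.42 for Cyp3a11, -2.67 ± 0.21 for Cyp3a13 and -3.27 ± 0.36 for Cyp3a25. Over the 34 pathway genes, 24 were tested, and 15 were lower, 3 higher and 6 not past the threshold, with a median log2 fold change of -0.89 against 0.0087 over all genes. That is beside 27.0% lower and 22.7% higher over all genes tested, and the 3 higher include Klb.

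**Figure D4:**
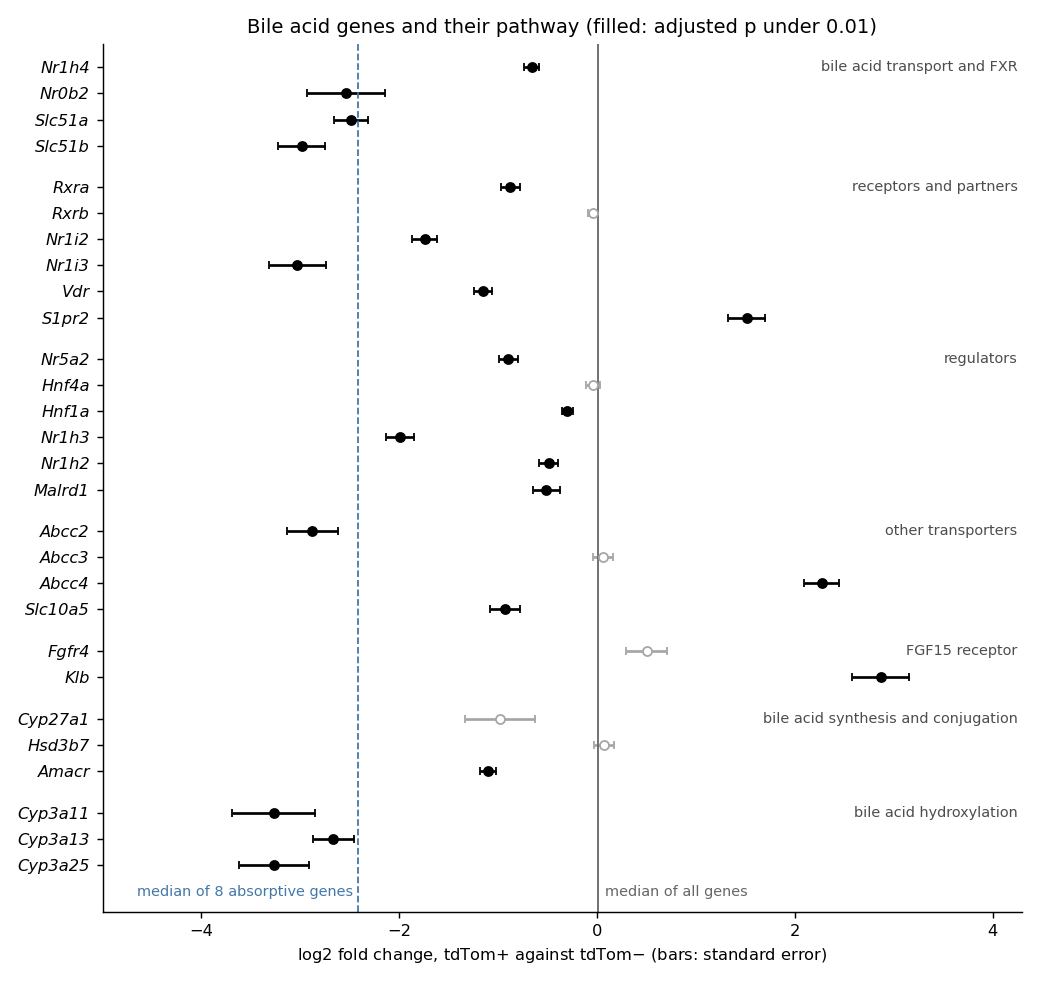
Log2 fold change of tdTom+ against tdTom- (x axis, bars are standard errors) for the 4 tested bile acid transport and FXR genes and 24 pathway genes; filled points have an adjusted p under 0.01, the solid line is the median of all genes and the dashed line that of 8 absorptive genes. Slc51a (-2.49) and Nr0b2 (-2.54) lie near the absorptive median of -2.42, while Nr1h4 (-0.66) lies between the lines and Klb, Abcc4 and S1pr2 lie to the right.

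The level of Slc51a in a mouse was shared by both of its fractions. Across 8 mice its log2 CPM in tdTom+ followed that in tdTom- (Pearson r = 0.880, exact permutation p = 0.000298, 0.00119 adjusted over 4 genes; Spearman rho = 0.976, p = 0.000397, adjusted p = 0.00159). Without mice 7 and 5, the farthest from the median, r was 0.898. For Slc51b r was 0.853 (exact permutation p = 0.0125, adjusted p = 0.0251) but rho was 0.667 (p = 0.0831, adjusted p = 0.166), and without mice 5 and 3 r was 0.618. Without mouse 5 alone r was 0.553 (exact permutation, adjusted p = 0.403), so that the call rests on that mouse, and without mouse 2 it was 0.837 (adjusted p = 0.0508 by the same exact test). Nr1h4 gave r = 0.580 (exact permutation p = 0.131, adjusted p = 0.174; rho = 0.429, p = 0.299) and 0.217 without mice 1 and 5. Nr0b2 gave r = 0.336 (exact permutation p = 0.417, also adjusted; rho = 0.357, p = 0.389) and -0.222 without mice 7 and 5.

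The mean of the absorptive panel was itself shared between fractions (r = 0.807, exact permutation p = 0.0229; rho = 0.548, p = 0.171). With the panel subtracted from each library, r was 0.448 for Slc51a and 0.435 for Slc51b, and neither passed (exact permutation, adjusted p = 0.370 for both). Mouse 5 had the highest level of all 4 tested genes in both fractions, and it also had the highest absorptive panel in both. Mouse 7 had the lowest panel in both fractions, the lowest Slc51a in both, and the lowest Nr0b2 in tdTom-, but not the lowest Nr1h4 or Slc51b in either.

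**Figure D5:**
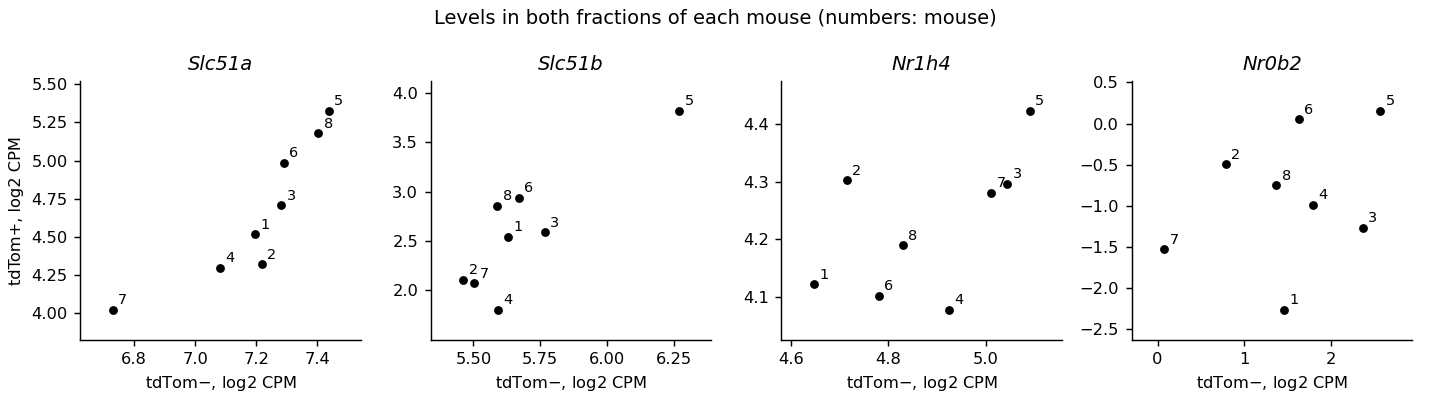
Log2 CPM in the tdTom- (x axis) and tdTom+ (y axis) library of each mouse for Slc51a, Slc51b, Nr1h4 and Nr0b2; numbers are mice and axes differ between panels. Mouse 5 is highest in both fractions for all 4 genes, and the order of mice is closest between fractions for Slc51a (rho = 0.976).

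The genes whose levels followed each gene most closely over the 16 libraries, after centring within each fraction and among 8941 genes, are given as a description. For Slc51a they were Sphk1 (r = 0.979), a sphingosine kinase, Gna11 (0.972), a G protein subunit, and Pla2g12b (0.969), a phospholipase-like protein of lipoprotein assembly. For Slc51b they were Atp5d (0.937), a subunit of ATP synthase, Gm3222 (0.932) and Sdhb (0.926), a subunit of succinate dehydrogenase. For Nr1h4 they were Casp4 (0.918), an inflammatory caspase, Usf1 (0.809), a transcription factor, and Psme2b (0.786). Slc51a and Slc51b had r = 0.844 with each other, and Nr1h4 had r = 0.0803 with Slc51a and 0.422 with Slc51b. These points share their libraries, mice and absorptive content, so that no test is attached to them.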

How the data were processed

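RNA of 16 sorted fractions was sequenced from stranded mRNA libraries. The deposited values are raw counts per gene, made by the authors, per the file headers, with featureCounts 1.5.0-p1 (reads on exons, by strand, primary alignments, no read given to overlapping genes). The submitters' processing notes list TopHat2 2.1.1, Subread 1.5.2, DESeq2 1.14.1 and GRCm38.p3. Genes were grouped by the labels' tdTom+ and tdTom- fraction. The 45513 genes were filtered (filterByExpr), TMM-scaled and fitted with edgeR 4.0.16 (quasi-likelihood F-test, R 4.3.3), with Benjamini-Hochberg adjustment over 15323 genes and a threshold of 0.01. Each script was tested on simulated data. CPM use TMM library sizes, and log2 CPM a prior count of 2. DESeq2 1.42.0, other scalings, no filter, a mouse block and leaving out each mouse were alternatives. Single values were compared by exact permutation over libraries (scipy 1.17.1). The title gives both fractions of a mouse 1 animal number. Deviations from the group means correlated at 0.426 on average (0.245 to 0.634) between same-numbered libraries and at -0.0569 otherwise, and 8 of 8 libraries matched their own number best. The genes and lists were chosen with earlier results of these data known. Genes named are the 7, the lists, and the 3 most alike genes of each gene with at least 5 CPM. Floors and intervals cover counting error only. The time from the last tamoxifen dose to collection was not settled from the sources used here.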

Additional observations from a re-analysis of the deposited data

Results flagged for a closer look

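The Slc51b level of mouse 5 in tdTom- was flagged because it stood apart from the other mice. It was 77.1 CPM against 44.0 to 54.4 CPM in the other 7. On the log2 scale its distance to the next library was 0.622 of the whole range. In 8 sets of 8 libraries examined in this way, chance flags about 1 in 20. The same mouse had the highest tdTom+ level of Slc51b (14.0 CPM) and the highest absorptive panel in both fractions (mean log2 CPM 11.38 in tdTom- and 9.40 in tdTom+, against fraction medians of 11.18 and 8.95). Without mouse 5 the log2 fold change of Slc51b was -3.15. The part of absorptive content in this level was not tested.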

How the results depend on the processing

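Of 209 recomputed values for 18 results, 195 were counted as keeping their direction and their side of the threshold. For the correlations without 2 mice no p was computed, so that their side of the threshold is not known. Fold changes over the alternatives ranged from -0.72 to -0.54 for Nr1h4, -2.73 to -2.23 for Nr0b2, -2.56 to -2.37 for Slc51a and -3.15 to -2.86 for Slc51b. With the mouse as a replicate block they were -0.66, -2.53, -2.53 and -3.07 in the same order, and the block changed no call among the 4 genes tested. Scaling to total counts only gave 4284 genes lower and 3011 higher, against 4133 and 3473. Among correlations between fractions, r without 2 mice was 0.217 for Nr1h4 and -0.222 for Nr0b2, and after subtracting the absorptive panel it was -0.030 for Nr0b2, 0.448 for Slc51a and 0.435 for Slc51b. In alternatives chosen after seeing the data, r for Slc51b ranged from 0.553 to 0.911 when each mouse was left out, and the difference of Slc51a from the absorptive panel without Krt20 was -0.17. The cause of these shifts was not tested. Leaving out each mouse, the CPM difference (tdTom+ minus tdTom-) ranged from -0.0169 to 0.0539 for Slc10a2, changing sign without mouse 1 or 8. For Fgf15 it ranged from -0.143 to -0.110, and without mouse 2, 4, 7 or 8 the exact permutation p adjusted over the 3 genes rose above 0.05 (0.0664, 0.0612, 0.0857 and 0.0857). The 0 to 11 reads per library limit what can be said of Slc10a2, Fabp6 and Fgf15.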
